A study of Mus musculus with 2 samples.

Results

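Levels of 8 genes that encode D-type cyclins and inhibitors of the cell cycle were measured in single cells of mouse embryonic limb muscle: Ccnd1, Ccnd2, Ccnd3, Cdkn1a, Cdkn1b, Cdkn1c, Cdkn2c and Gadd45g. They were chosen by symbol and are 8 of the 32285 genes in the deposited matrices. All 8 had UMIs in both libraries. Limb skeletal muscles of wild-type C57Bl/6 mouse embryos were taken at E12.5 and E15.5 (days of embryonic development), dissociated mechanically and with trypsin, and sequenced as 1 droplet library per age. The labels do not give the number or sex of the embryos behind a library. The libraries held 12941 barcodes with 34907675 UMIs at E12.5 and 5780 barcodes with 46966083 UMIs at E15.5, where a UMI (unique molecular identifier) marks 1 captured RNA molecule. After filtering, 11001 and 3916 cells remained, with medians of 2322 and 9325.5 UMIs, and the libraries shared 17 barcodes. With 1 library per age there was no test. All intervals below are 95% intervals for counting error only, and age cannot be told apart from the library.

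D cyclins bind and activate the kinases Cdk4 and Cdk6, which phosphorylate the retinoblastoma protein Rb1 and so release E2F factors to start DNA synthesis. Inhibitors of the Cip/Kip family (Cdkn1a, Cdkn1b and Cdkn1c, encoding p21, p27 and p57) bind complexes of cyclins and kinases, while INK4 proteins such as the Cdkn2c product bind Cdk4 and Cdk6 directly. Gadd45g encodes a stress-inducible protein that interacts with p21 and with the mitotic kinase complex. In developing muscle, Pax7 marks progenitors, and Myog, encoding myogenin, marks cells that leave the cell cycle and differentiate, a step in which p21 and p57 are known to act together.

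Cells were grouped by rebuilt clusters and, within muscle, by marker UMIs. Of 608 muscle cells at E12.5, 172 were Pax7-positive (at least 1 Pax7 UMI and no Myog UMI), 245 were Myog-positive (the reverse), 19 had both and 172 had neither. Of 399 muscle cells at E15.5, these numbers were 197, 114, 52 and 36. Mesenchyme was the connective tissue-like class of 8357 and 1857 cells, and cartilage the chondrocyte-like class of 1339 and 638 cells. Neither the members nor Pax7 and Myog shaped the clusters. The muscle lineage markers summed to 2502 and 1508 CPM (the UMIs of a gene scaled to a common total per group) in Pax7-positive cells at E12.5 and E15.5, to 27416 and 16252 CPM in Myog-positive cells, and to 140 and 86.3 CPM in mesenchyme, and all 14 were detected in each of these groups.

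Some limits of the grouping touch the results. The chondrocyte markers summed to 16182 CPM in the chondrocyte class at E12.5 but to 6094 CPM at E15.5, where connective tissue markers summed to 9463 CPM. At E15.5 the class was mostly a Sox9-positive cluster of 499 cells led by Mia and Mecom with 633 CPM of Col2a1, the main cartilage collagen, while a cluster of 43 cells led by Matn1 had 10809 CPM. The label therefore fits the E15.5 class less well, and cartilage at E15.5 stands below only for this mixed class. Age differences in it are given also for the Matn1-led cluster. Free RNA also reached other cells: after thinning every cell to 2000 UMIs, a Myog UMI was in 0.777% of the mesenchyme at E12.5 and in 1.62% at E15.5. Without thinning, as the muscle states were set, these shares were 1.05% and 5.65%.

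Cdkn1a and Gadd45g stood more than 10-fold higher in Myog-positive than in Pax7-positive cells at both ages, so their promoter sequences are shown. The sequences are the 250 bases before each RefSeq start on build GRCm38.p6, plus strand, 5′ to 3′, and capitals mark the letters CAGCTG, an E-box of the kind that myogenic factors can bind. Cdkn1a, upstream start, chr17:29090729-29090978, and downstream start, chr17:29093519-29093768, then Gadd45g, chr13:51846425-51846674:
Cdkn1a upstream start: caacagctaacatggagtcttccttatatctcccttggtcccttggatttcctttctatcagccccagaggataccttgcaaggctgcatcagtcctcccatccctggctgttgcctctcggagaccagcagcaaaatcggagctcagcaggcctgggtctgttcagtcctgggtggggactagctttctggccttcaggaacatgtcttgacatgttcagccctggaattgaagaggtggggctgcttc
Cdkn1a downstream start: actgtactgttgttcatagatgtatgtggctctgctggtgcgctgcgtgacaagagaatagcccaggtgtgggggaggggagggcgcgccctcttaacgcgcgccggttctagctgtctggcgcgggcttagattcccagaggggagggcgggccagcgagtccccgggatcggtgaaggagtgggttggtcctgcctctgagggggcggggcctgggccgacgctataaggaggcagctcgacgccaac
Gadd45g: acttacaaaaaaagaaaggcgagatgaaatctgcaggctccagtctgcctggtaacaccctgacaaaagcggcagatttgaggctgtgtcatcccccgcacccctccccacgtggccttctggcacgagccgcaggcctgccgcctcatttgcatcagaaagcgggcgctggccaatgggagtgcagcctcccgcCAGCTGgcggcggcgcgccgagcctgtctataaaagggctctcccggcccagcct

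Both searches below, on both strands of the window of 250 bases before to 50 bases after a start, were chosen after these sequences had been read. The table held 8 promoters for 5 of the 8 members (Ccnd3, Cdkn1a, Cdkn1b, Cdkn2c and Gadd45g). CAGCTG was in 2 of the 8, in Gadd45g 55 bases before the start and in Cdkn1a 37 bases after the upstream start, and in 5354 of all 32841 promoters (16.3%). The p53 consensus pair, a site of the stress-responsive factor p53, was searched with a spacer of at most 3 bases and no mismatch allowed. It was in 0 of the 8 and in 6 of all 32841 (0.0183%). The Cdkn1a upstream sequence above holds gaacatgtct directly followed by tgacatgttc. The former fits the consensus, and the latter departs from it only in its leading t, where a or g is required. Such near matches were not counted in any promoter. With so few exact matches in any promoter, a count of 0 in 8 says nothing about the members. A match describes the letters in this window only. On GRCm38, the genes lie at chr17:29090976-29100727 on the plus strand (Cdkn1a, ENSMUSG00000023067) and chr13:51846678-51848468 on the plus strand (Gadd45g, ENSMUSG00000021453). Ccnd1 lies at chr7:144929931-144939925 on the minus strand, Ccnd2 at chr6:127125162-127152193 on the minus strand and Ccnd3 at chr17:47505051-47599691 on the plus strand. Cdkn1b lies at chr6:134920401-134925513 on the plus strand, Cdkn1c at chr7:143458339-143461050 on the minus strand and Cdkn2c at chr4:109660876-109667189 on the minus strand.

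The 3 D cyclins had different patterns. Ccnd1 and Ccnd2 were lower in muscle than in pooled mesenchyme and cartilage at both ages, and lower in Myog-positive than in Pax7-positive cells. Both were lower at E15.5 than at E12.5 in each of these 4 groups. Ccnd3, the D cyclin known to persist in differentiating muscle, was at similar levels in both muscle states and was the only D cyclin that was higher at E15.5 in all 4 groups. In Pax7-positive cells it also stood above mesenchyme at E12.5, by 1.32 on the log2 scale, and by 0.35 at E15.5.

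Ccnd1 was at 135 CPM [109, 164] in Pax7-positive cells at E12.5 and at 53.6 CPM [45.7, 62.5] at E15.5. The Myog-positive cells had 61.1 CPM [47.3, 77.7] and 14.2 CPM [9.16, 20.9]. Mesenchyme had 515 CPM [506, 525] and 150.2 CPM [145, 156], and cartilage 625 CPM [599, 652] and 292 CPM [277, 308]. No intervals of adjacent levels overlapped within an age. The order of cartilage, mesenchyme, Pax7-positive and Myog-positive cells as pooled groups was thus the same at both ages. Single clusters did not keep the order of cartilage and mesenchyme. At E12.5 the mesenchyme clusters ranged from 203 to 877 CPM, and the chondrocyte clusters were at 302 and 691 CPM. At E15.5 the ranges were 63.7 to 368 CPM and 219 to 319 CPM.

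Ccnd2 followed the same order in the pooled groups. By cluster, mesenchyme at E12.5 ranged from 644 to 2586 CPM, and the chondrocyte clusters were at 811 and 1841 CPM. Ccnd2 was at 690 CPM [630, 753] in Pax7-positive cells at E12.5 and at 127 CPM [115, 141] at E15.5, a 5.42-fold lower level. The Myog-positive cells had 256 CPM [226, 287] and 24.3 CPM [17.6, 32.8], 10.5-fold lower. Mesenchyme (1497 and 775 CPM) and cartilage (1668 and 1262 CPM) had the higher levels, with an age difference under 2-fold. After thinning to 2000 UMIs, the share of Pax7-positive cells with a Ccnd2 UMI was 65.1% at the earlier age and 17.8% at the later one. The muscle states were set before thinning, and a Pax7 UMI remained in 72.9% and 34.5% of these cells. Ccnd2 was thus counted at equal depth per cell, but the cells were not chosen at equal depth.

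Ccnd3 was at 230 CPM [196, 268] in Pax7-positive cells at E12.5 and at 313 CPM [293, 333] at E15.5. In Myog-positive cells it was at 205 CPM [179, 234] and 284 CPM [260, 310], and the intervals of the muscle states overlapped at each age. Mesenchyme went from 92.3 CPM [88.2, 96.6] at E12.5 to 246 CPM [239, 253] at E15.5, and cartilage from 104 CPM [94.0, 116] to 163 CPM [152, 175]. The ratio of the muscle states was −0.16 [−0.46, 0.14] on the log2 scale at E12.5 and −0.14 [−0.30, 0.02] at E15.5. It turned to 0.23 after thinning at E12.5 and to 0.10 with scaling to the median gene at E15.5.

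These differences moved the makeup of the D cyclin UMIs. In Pax7-positive cells, Ccnd3 made up 21.8% [18.9, 24.9] of the D cyclin UMIs at the earlier age and 63.4% [60.9, 65.8] at the later one. In Myog-positive cells it made up 39.4% [35.3, 43.5] and 88.1% [85.1, 90.6]. In mesenchyme it was 4.39% and 21.0%, and in cartilage 4.36% and 9.49%. UMIs are not corrected for how well each transcript is captured, so the share is compared between groups of cells and not between genes. The summed D cyclins were at 1054 CPM in Pax7-positive cells at E12.5 and 494 CPM at E15.5. In Myog-positive cells they were at 522 and 323 CPM. In both muscle states most of the D cyclin UMIs at E15.5 thus came from Ccnd3, which was not the case in mesenchyme or cartilage.

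**Figure D1:**
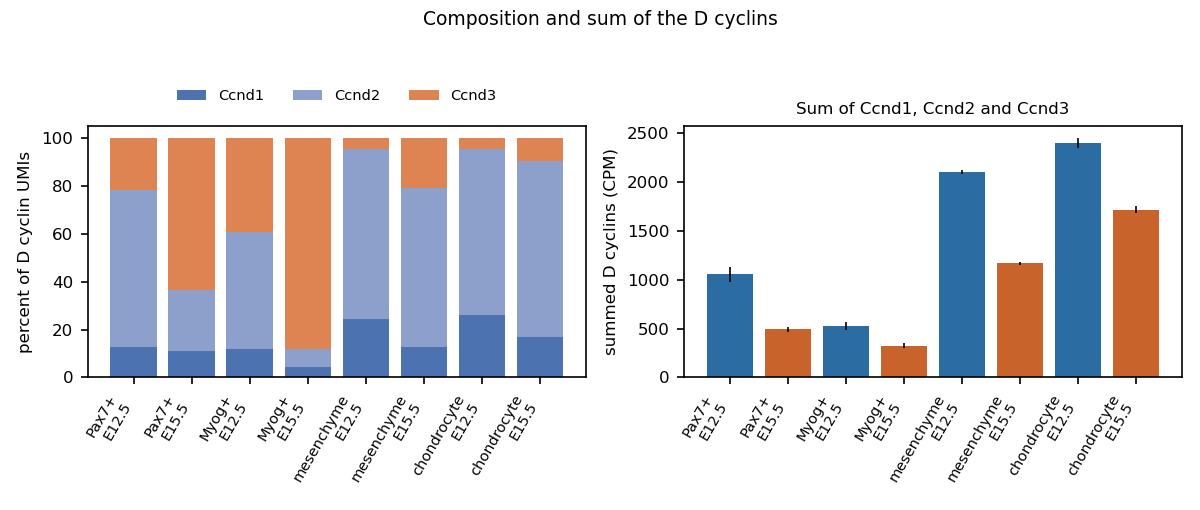
Left, share of the D cyclin UMIs (percent) from Ccnd1, Ccnd2 and Ccnd3, and right, the summed level of the D cyclins (CPM, bars with 95% Poisson intervals), in Pax7-positive muscle, Myog-positive muscle, mesenchyme and chondrocyte-like cells at E12.5 and E15.5, 1 library per age. Ccnd3 made up 88.1% in Myog-positive cells at E15.5 and 4.39% in mesenchyme at E12.5.

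Cdkn1a showed the largest difference between muscle states among the members. It was at 21.0 CPM [11.8, 34.7] in Pax7-positive cells at E12.5 (15 UMIs) and at 3.94 CPM [2.04, 6.89] at E15.5 (12 UMIs). In Myog-positive cells it was at 575 CPM [531, 622] and 452 CPM [421, 484]. Cells with both markers were in between, at 60.5 CPM [24.3, 125] and 89.2 CPM [71.2, 110]. Mesenchyme had 4.46 and 14.4 CPM and cartilage 10.4 and 26.0 CPM. After thinning, a Cdkn1a UMI was in 54.4% of Myog-positive cells at E12.5 (124 of 228) and in 4.22% of Pax7-positive cells (7 of 166), and at E15.5 in 38.2% (42 of 110) and 1.02% (2 of 197). The share in thinned mesenchyme was 0.719% and 1.78%, and by cluster the mesenchyme of E15.5 ranged from 2.20 to 94.8 CPM.

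Gadd45g was at 11.2 CPM [4.84, 22.1] in Pax7-positive cells at E12.5 (8 UMIs) and at 31.5 CPM [25.5, 38.5] at E15.5. In Myog-positive cells it was at 191 CPM [166, 219] and 384 CPM [356, 414]. Mesenchyme was at 22.6 and 95.2 CPM, and cartilage at 50.5 and 46.5 CPM. After thinning, 28.5% and 40.0% of Myog-positive cells had a Gadd45g UMI, against 1.81% and 6.60% of Pax7-positive cells. Mesenchyme at E15.5 was uneven: its clusters ranged from 23.2 to 491 CPM, the highest in a cluster of 84 cells led by Twist2, so the level of the pooled class does not describe each cluster.

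Cdkn1c was detected in nearly every muscle cell, with a UMI in 97% and 99.5% of thinned Pax7-positive cells and 98.7% and 99.1% of Myog-positive ones. It was at 2591 CPM [2474, 2711] in Pax7-positive cells at E12.5 and 6482 CPM [6392, 6573] at E15.5, and at 6538 CPM [6386, 6692] and 12627 CPM in Myog-positive cells. Mesenchyme was at 1678 and 4839 CPM and cartilage at 3757 and 3017 CPM. Cells with both muscle markers were at 3379 CPM [3053, 3731] and 8931 CPM [8741, 9124], in between the 2 muscle states at each age. Its difference between the muscle states was thus smaller than that of Cdkn1a.

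Cdkn1b and Cdkn2c had few UMIs in muscle. Cdkn1b was at 16.8 CPM [8.69, 29.4] and 22.7 CPM [17.6, 28.7] in Pax7-positive cells and at 11.1 CPM [5.74, 19.4] and 11.3 CPM [6.91, 17.5] in Myog-positive cells. Mesenchyme was at 42.4 and 28.2 CPM and cartilage at 24.8 and 35.9 CPM. Cdkn2c had 0 UMIs in the Pax7-positive cells of E12.5. At E15.5 it was at 17.1 CPM [12.8, 22.4] there, which is 4.06-fold a floor of 3 counts over the E12.5 group. It was at 1.85 CPM (2 UMIs) and 9.62 CPM in Myog-positive cells, at 5.44 and 14.7 CPM in mesenchyme and at 4.62 and 17.0 CPM in cartilage.

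**Figure D2:**
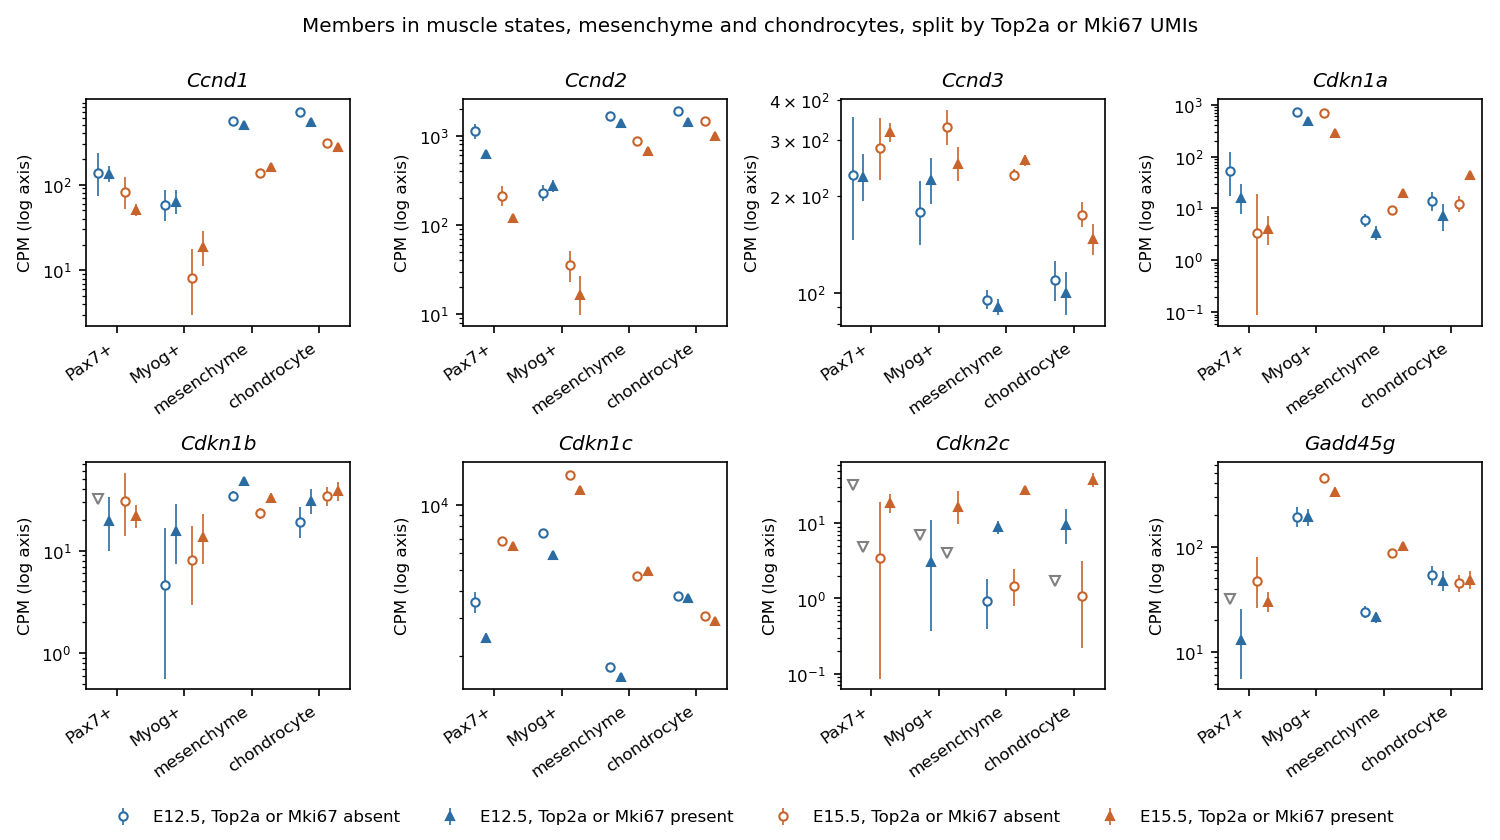
Level (CPM, log scale) of each member in the 4 cell groups at E12.5 and E15.5, for cells with a Top2a or Mki67 UMI (filled triangles) and without (open circles), with 95% Poisson intervals. Grey triangles mark the 3-count floor where a group had 0 UMIs. Cdkn1a and Gadd45g stood high in Myog-positive cells, and Ccnd1 and Ccnd2 low.

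Which genes separate progenitors from differentiating cells was asked within each library, counting a gene as past 2-fold where its log2 ratio was at least 1 or at most −1, its interval left out 0 and its mean was at least 10 CPM. At E12.5, 3 of the 7 members tested were higher in Myog-positive cells, against 8.67% of all genes tested, and 2 were lower, against 9.34%. At E15.5, 2 of 8 were higher (7.79% of all genes) and 3 lower (12.3%). Cdkn1a was higher by 4.77 [4.04, 5.62] on the log2 scale (27.3-fold) at E12.5 and by 6.84 [6.03, 7.80] (115-fold) at E15.5. Gadd45g was higher by 4.09 [3.08, 5.32] and 3.61 [3.30, 3.93]. Cdkn1c was higher by 1.34 and, just short of 2-fold at E15.5, by 0.96, which became 1.197 with scaling to the median gene, 1.08 after thinning and 1.06 with Myog-positive cells only from the muscle cluster with the highest Myog level and Pax7-positive cells only from the others.

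The D cyclins Ccnd1 and Ccnd2 made up the lower members. Ccnd1 had log2 ratios of −1.14 (E12.5) and −1.92 (E15.5), and Ccnd2 of −1.43 and −2.39. Cdkn1b was lower at E15.5, with a ratio of −1.002 [−1.80, −0.27], a value at the threshold. After thinning, with the marker status of each cell read again, the log2 ratio of Cdkn1a was 4.22 (E12.5) and 4.46 (E15.5), that of Ccnd2 at E15.5 was −0.96, and Cdkn1b, at −1.24, had an interval that took in 0. Without removing doublets, Ccnd1 at E12.5 was at −0.97, under 2-fold, and with scaling to the median gene at −0.96.

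The other genes of the pathway were described by lists that were written with earlier results of these data known. Over all genes tested, 8.67% were higher and 9.34% lower in Myog-positive cells at E12.5, and 7.79% and 12.3% at E15.5. Of 12 kinase, Rb and E2F genes tested at E12.5, 1 was higher in Myog-positive cells and 3 lower, with a list median of −0.67 beside −0.18 over all genes tested. The higher gene was Rb1, at 40.7 CPM in Pax7-positive and 283 CPM in Myog-positive cells (2.80 on the log2 scale), and at 14.1 and 194 CPM at E15.5 (3.78). The kinase Cdk4 had a ratio of −0.75 at E12.5 and −0.39 at E15.5. Of 10 later cyclins and kinases, 4 were lower at E12.5, led by Ccne1 at −1.95, and 3 at E15.5 with Ccne1 at −1.81. S phase genes were lower in 8 of 12 at E12.5 and in 10 of 12 at E15.5, and none was higher.

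The same shares of all genes, 8.67% higher and 9.34% lower at E12.5 and 7.79% and 12.3% at E15.5, stand beside the next lists. Of the 8 p53 target genes tested at E12.5, 3 were higher in Myog-positive cells, Trp53inp1 (2.47), Btg2 (1.83) and Mdm2 (1.45), and none was lower. At E15.5, Trp53inp1 (1.99) and Ccng1 (1.39) were higher and Phlda3 (−1.17) was lower. Genes known to respond to tissue dissociation, such as Junb (2.26), were higher in 3 of 9 at E12.5, while at E15.5 none was higher and Atf3 (−2.02) and Jun (−1.81) were lower. Cdkn1a and Gadd45g can respond to stress as well, and the part of dissociation in their values was not tested. Of the early muscle differentiation genes, all 9 tested at E12.5 were higher, and 9 of the 10 tested at E15.5.

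**Figure D3:**
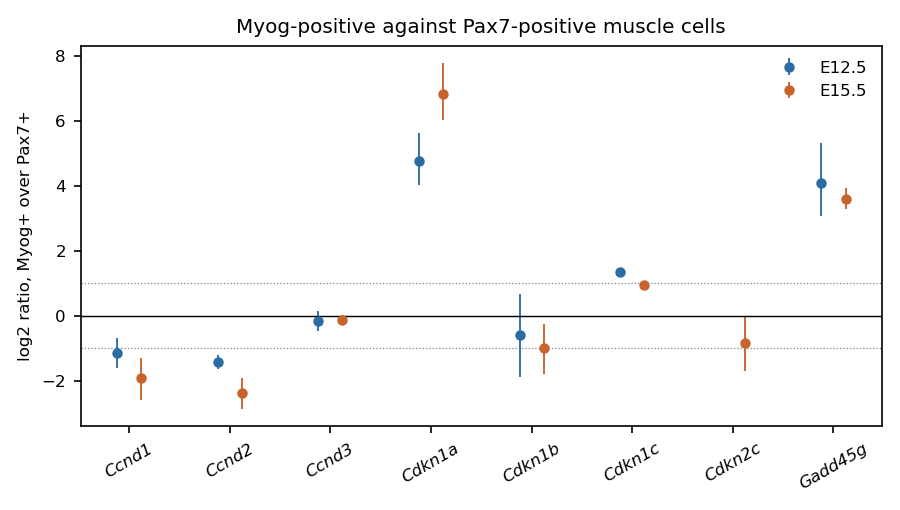
Log2 ratio of Myog-positive over Pax7-positive muscle cells for each member at E12.5 and E15.5, with 95% conditional intervals. Cdkn2c at E12.5 is not drawn, since Pax7-positive cells had 0 UMIs. Cdkn1a reached 4.77 and 6.84 and Ccnd2 −1.43 and −2.39.

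Across age, the members were compared within each class. In Pax7-positive cells 2 of 7 members tested were higher at E15.5, against 4.04% of all genes tested, and 3 were lower, against 16.2%. Cdkn1c was higher by 1.32 and Gadd45g by 1.49 [0.46, 2.74]. Ccnd2 (−2.44), Ccnd1 (−1.33 [−1.70, −0.95]) and Cdkn1a (−2.41 [−3.64, −1.22]) were lower. After thinning, Ccnd1 was at −0.98, and the intervals of Cdkn1a (−1.29) and Gadd45g (1.30) took in 0. With at least 2 UMIs of Pax7 or Myog required, Gadd45g was at 0.27. Of 9 genes of the dissociation list tested, 6 were higher at E15.5 in the same cells, with Junb at 2.48 and Fos at 2.10, and their part in the Gadd45g value was not tested.

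In Myog-positive cells 1 of 7 members tested was higher at E15.5 (4.05% of all genes), Gadd45g by 1.01 [0.78, 1.24], and 2 were lower (21.4%), Ccnd2 with −3.39 and Ccnd1 with −2.11. Cdkn1c was higher by 0.95, under the threshold. The Cdkn1a ratio was −0.35 [−0.50, −0.19], and it was 0.06 with scaling to the median gene and −1.05 after thinning. Gadd45g was under 2-fold when at least 2 marker UMIs were required (0.90), with the mean over cells (0.87), with doublets kept (0.998) and after thinning (0.81). No dissociation gene was higher in these cells, and Jun was at −1.11.

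In mesenchyme, Gadd45g (2.08), Cdkn1c (1.53), Cdkn2c (1.44) and Ccnd3 (1.41) were higher at E15.5, 4 of 7 members tested against 7.48% of all genes, and Ccnd1 was lower (−1.78), 1 of 7 against 17.5%. After thinning, the interval of Cdkn2c took in 0 at 1.04. Cdkn1a, under the 10 CPM minimum, had a ratio of 1.69 [1.34, 2.04]. Ccnd2 was at −0.95 and Cdkn1b at −0.59. Of 9 dissociation genes, 7 were higher, Atf3 by 2.74, and their part in the Gadd45g and Cdkn1a values was not tested.

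In the chondrocyte class, Cdkn1a (1.32 [0.78, 1.90]) and Cdkn2c (1.88) were higher, 2 of 8 members against 7.18% of all genes, and Ccnd1 was lower (−1.10), 1 of 8 against 12.9%. Cdkn1c was at −0.32 and Gadd45g at −0.12. At clustering resolution 0.5 no member was past 2-fold and Cdkn1a was at −0.24. In the Matn1-led cluster of E15.5 Cdkn1a was at 2.82, Cdkn2c at 0.77, Ccnd1 at −1.26, Ccnd2 at −0.65 and Ccnd3 at 0.81. There the sign turned for Cdkn1c (0.13), Gadd45g (0.90) and Cdkn1b (−0.25, with 0.53 in the whole class). All 9 dissociation genes tested were higher, Atf3 by 4.44, and their part in the Cdkn1a value was not tested.

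Of 5 other inhibitors, 3 of 3 tested were higher at E15.5 in Pax7-positive cells, 1 of 3 in Myog-positive cells, 2 of 2 in mesenchyme and 1 of 2 in cartilage, and none was lower, beside the 4.04%, 4.05%, 7.48% and 7.18% of all genes given above. Cdkn2d, another INK4 gene, was higher in all 4 groups, by 2.06 in Pax7-positive cells, 1.55 in Myog-positive cells, 1.65 in mesenchyme and 1.09 in cartilage. Gadd45a (1.16) and Gadd45b (1.12) were higher in Pax7-positive cells, and Gadd45b (1.25) in mesenchyme. Rb1 was lower in Pax7-positive cells (−1.52), mesenchyme (−1.91) and cartilage (−1.25), and Cdk6 in mesenchyme (−2.01) and cartilage (−1.94).

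Cells were further divided by at least 1 UMI of Top2a or Mki67, genes of dividing cells. Top2a encodes a DNA topoisomerase and Mki67 the Ki-67 antigen. At least 1 such UMI was in 80.8% and 86.3% of Pax7-positive cells at E12.5 and E15.5, in 56.7% and 54.4% of Myog-positive cells, in 49.8% and 41.9% of mesenchyme and in 42.6% and 35.9% of cartilage. After thinning these shares were 77.7% and 66.0%, 44.3% and 30.9%, 55.4% and 22.6%, and 42.6% and 25.3%. Thinning left out 3212 of 8357 mesenchyme and 443 of 1339 cartilage cells at E12.5, against 2 of 1857 and 6 of 638 at E15.5. Of the mesenchyme left out at E12.5, 2155 cells had no such UMI before thinning and 1057 had one. The thinned shares of the 2 ages thus do not rest on cells chosen alike. Deeper cells more often have a UMI, so the unthinned shares hold depth as well, and the cells without such a UMI had lower medians than those with it (2659 against 4045 UMIs in Pax7-positive cells at E12.5).

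In Pax7-positive cells at E15.5, cells with Top2a or Mki67 UMIs held 2749307 of the 3043209 UMIs of all genes. Where the UMIs of a gene fall thus says little in that group. In mesenchyme, in cartilage and in Myog-positive cells at E15.5, Cdkn2c had its UMIs almost wholly in cells with Top2a or Mki67 UMIs. In mesenchyme it was at 8.81 CPM [7.19, 10.7] with and 0.918 CPM [0.396, 1.81] without them at E12.5, and at 27.8 CPM [24.6, 31.3] and 1.45 CPM [0.793, 2.43] at E15.5. In cartilage at E15.5 it was at 37.8 CPM [30.02, 47.0] and 1.08 CPM [0.222, 3.15]. The log2 ratio at E15.5 was 4.26 [3.49, 5.15] in mesenchyme and 5.13 [3.54, 7.44] in cartilage. Myog-positive cells at E15.5 had 17 UMIs (16.6 CPM) with and 0 UMIs without them, which is 4.09-fold a floor of 3 counts. Cartilage at E12.5 had 16 UMIs (9.38 CPM) with and 0 without, which is 5.50-fold such a floor.

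At E15.5, Cdkn1a was lower with Top2a or Mki67 UMIs in Myog-positive cells and higher with them in mesenchyme and the chondrocyte class. The difference in mesenchyme was under 2-fold after thinning. In Myog-positive cells it was at 479 CPM [427, 535] with and 719 CPM [641, 804] without Top2a or Mki67 UMIs at E12.5, and at 287 CPM [256, 322] and 679 CPM [621, 741] at E15.5. In mesenchyme at E15.5 it was at 19.4 CPM [16.8, 22.4] with and 9.22 CPM [7.41, 11.4] without, and in cartilage at 43.9 CPM [35.5, 53.7] and 12.2 CPM [8.45, 17.1]. At E12.5 it was not higher with them in these classes, at 3.42 against 5.85 CPM in mesenchyme (log2 ratio −0.77 [−1.41, −0.15]) and 7.04 against 13.7 CPM in cartilage (−0.96 [−2.09, 0.10]). In E15.5 cartilage the cluster of 96 cells, all with a Top2a or Mki67 UMI, had 53.03 CPM [40.3, 68.6] of Cdkn1a and the Mia-led cluster 12.2 CPM. The Matn1-led cluster, with such a UMI in 37.2% of its cells, had more, 73.3 CPM [48.7, 106]. In E15.5 mesenchyme a cluster of 48 cells (33.3% with such a UMI) had 94.8 CPM, and a cluster of 216 cells (99.1%) had 15.3 CPM. By cluster, Cdkn1a thus did not simply follow the share of cells with these UMIs. After thinning, 46.2% and 65.3% of Myog-positive cells had a Cdkn1a UMI at E12.5 (with and without), and 21.7% and 58.0% at E15.5. So many Myog-positive cells with Top2a or Mki67 UMIs also held Cdkn1a.

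At E12.5 the 10 CPM minimum left out Cdkn2c in each group, Cdkn1a in mesenchyme and further members in Pax7-positive cells. A call also needed an interval that left out 0, so a member with few UMIs, such as Cdkn1a in Pax7-positive cells, could differ without being called. Among the members that met the minimum, none was past 2-fold at E12.5 in Pax7-positive cells (5 tested, 4.15% of all genes past it in either direction). Nor was any in Myog-positive cells (7 tested, 6.91%), mesenchyme (6 tested, 2.88%) or cartilage (7 tested, 3.53%). In Pax7-positive cells at E15.5 it was 0 of 7 (7.19%). In Myog-positive cells at E15.5, 2 of 7 were lower with Top2a or Mki67 UMIs (5.27% of all genes) and none was higher (9.67%): Cdkn1a had a ratio of −1.24 [−1.45, −1.03] and Ccnd2 of −1.08 [−2.06, −0.15], from 17 and 26 Ccnd2 UMIs. In mesenchyme at E15.5, 2 of 8 were higher (3.79%) and none lower (0.269%), Cdkn2c and Cdkn1a (1.08 [0.71, 1.46]). In cartilage at E15.5, 2 of 8 were higher (5.09%) and none lower (0.821%), again Cdkn2c and Cdkn1a, the latter by 1.85 [1.27, 2.46]. After thinning, Ccnd2 in Myog-positive cells was at 0.0365 and Cdkn1a in mesenchyme at 0.60, so neither was past 2-fold. There the muscle states and the Top2a or Mki67 status were read again from the thinned UMIs. The share of cells with Top2a or Mki67 UMIs at E15.5 was 54.4% before and 30.9% after thinning in Myog-positive cells, and 41.9% and 22.6% in mesenchyme. Equal depth and the changed groups cannot be told apart in these 2 ratios.

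Ccnd1 in Pax7-positive cells was at 134 CPM with and 138 CPM without at E12.5, and at 50.6 and 81.7 CPM at E15.5. Ccnd2 in the same cells was lower with Top2a or Mki67 UMIs, at 623 against 1124 CPM and at 118 against 211 CPM, ratios of −0.85 and −0.84. Ccnd3 had ratios between −0.38 and 0.33 over the 8 comparisons. Cdkn1c was at −0.54 and −0.08 in Pax7-positive cells and at −0.34 and −0.24 in Myog-positive cells. Cdkn1b was higher in mesenchyme with these UMIs, by 0.49 and 0.51. Compared within cells with Top2a or Mki67 UMIs, the log2 ratio of Myog-positive over Pax7-positive cells for Cdkn1a was 4.89 (E12.5) and 6.17 (E15.5). Within cells without them it was 3.76 [2.52, 5.39], from 5 UMIs in Pax7-positive cells, and 7.64 [5.16, 12.9], from 1 UMI.

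**Figure D4:**
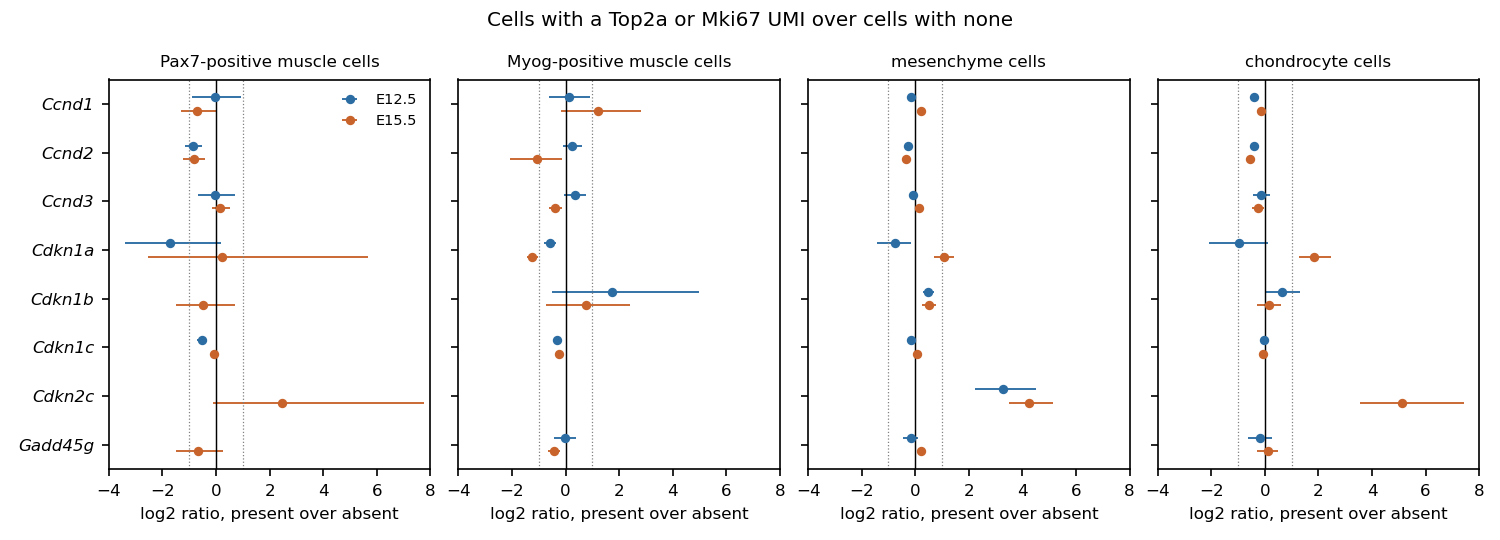
Log2 ratio of cells with over cells without Top2a or Mki67 UMIs for each member in the 4 cell groups at E12.5 and E15.5, with 95% conditional intervals. Ratios against 0 UMIs are not drawn, and dotted lines mark −1 and 1. Cdkn2c stood at 4.26 and 5.13 in mesenchyme and cartilage at E15.5, and Cdkn1a at −1.24 in Myog-positive cells at E15.5.

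Genes with the pattern most like each member were found by Pearson correlation over 16 groups (4 cell groups, 2 ages, with and without Top2a or Mki67 UMIs), centred within age. These groups share libraries, so the values only describe them. Cdkn1a was most like Stac3 (0.974) and Mymk (0.970), which encode proteins of muscle excitation and of myoblast fusion, and Hipk3. Ccnd1 was most like Fgfr1 (0.981), Ccnd2 like Ptprs (0.984) and Ccnd3 like the ribosomal protein gene Rplp1 (0.929). Cdkn1c was most like Cox17, Cdkn1b like Prkacb and Gadd45g like Inppl1. Cdkn2c, with a mean of 8.05 CPM under the 20 CPM minimum, was nearest to Lockd (0.957), H2afv (0.907) and Birc5 (0.902). Among members, Ccnd1 and Ccnd2 had 0.923, Cdkn1a and Gadd45g 0.783, Cdkn1a and Cdkn1c 0.769, and Ccnd2 and Cdkn1c −0.835.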

How the data were processed

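Single-cell RNA sequencing counted UMIs per gene and barcode in 1 library per age. The authors deposited raw counts; per the submitters' processing notes Cell Ranger 4.0.0, Seurat 4.3.0 and build mm10 were used, and per the labels 20000 cells were loaded per library. The deposited files also hold barcodes and gene names, and the lowest barcode total was 500 UMIs.

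Cells with under 500 detected genes (604 and 1376 barcodes at E12.5 and E15.5) or at least 10% mitochondrial UMIs (166 and 644) were removed. Doublets were scored against simulated doublets and the highest scores removed, at 0.8% per 1000 barcodes (1270 and 190 cells). Each library was clustered alone (2000 variable genes without the listed genes, 30 components, 15 neighbours, Leiden resolution 1) and clusters were named from markers. The naming rule, including leaving a Gata1-led cluster of E12.5 unnamed, was set after seeing the clusters.

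UMIs were summed per group as CPM with exact Poisson intervals. Log2 ratios had exact conditional intervals and shares exact Clopper-Pearson intervals, after thinning to 2000 UMIs with shallower cells left out. A ratio against 0 used a floor of 3 counts. It leaves out the counting error of the other group, so it is not a lower bound. The calling step was tested on simulated data. Members and lists were chosen with earlier results of these data known. The text names all 8 members, at most 4 genes of each list by size of ratio, and the nearest genes by correlation of log2(CPM + 10). Python 3.11.15, numpy 2.4.6, scipy 1.17.1, scikit-learn 1.9.0, scanpy 1.11.5, igraph 0.11.9, leidenalg 0.10.2 and matplotlib 3.10.9 were used. Of 32285 gene IDs, 32235 matched GENCODE vM21, all members included, and promoters came from RefSeq. The alternatives were clustering resolution, filters, doublets, marker minimums, thinning, scaling and means over cells, and, chosen after seeing the data, the Matn1-led cluster alone and the muscle cluster with the highest Myog level against the others.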

Additional observations from a re-analysis of the deposited data

Results flagged for a closer look

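Some values outside the 4 groups or between groups stood apart. Thresholds for them were set after the levels had been looked at, and no difference below was tested. Ccnd1 was at 801 CPM [658, 967] in Schwann-like cells at E12.5 and at 847 CPM [788, 909] at E15.5. In endothelial-like cells at E15.5 it was at 577 CPM [544, 610], above all 4 pooled groups at that age. At E12.5, mesenchyme clusters of 1065 and 688 cells were at 877 CPM [837, 918] and 815 CPM [772, 860]. The Schwann-like value at E12.5 thus lay within the range of the mesenchyme clusters. Cdkn1b was at 88.4 CPM [45.7, 154] in erythroid-like cells at E12.5, above the pooled 4 groups, while 1 mesenchyme cluster of 600 cells was at 83.1 CPM [71.0, 96.7].

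With the main processing, the age ratio of Cdkn1a had opposite signs in muscle and cartilage. It was −2.41 in Pax7-positive cells against 1.32 in the chondrocyte class, a difference of −3.74, and −0.35 in Myog-positive cells, a difference of −1.67. The opposite sign was not kept under every alternative. In the chondrocyte class the ratio was negative at clustering resolution 0.5, though it stayed positive in the Matn1-led cluster. After thinning, its interval in Pax7-positive cells spanned both signs. With scaling to the median gene it turned positive in Myog-positive cells. For Cdkn1b the age ratio was −0.59 in mesenchyme and 0.53 in the chondrocyte class, a difference of −1.12. In the Matn1-led cluster of E15.5 it was −0.25, so the opposite sign was not kept there. Cdkn1c was higher at E15.5 in muscle and mesenchyme (1.32 in Pax7-positive cells, 0.95 in Myog-positive cells and 1.53 in mesenchyme) and not in the chondrocyte class (−0.32), with differences of 1.64, 1.27 and 1.84. In the Matn1-led cluster the Cdkn1c ratio was 0.13.

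The ratio of cells with over cells without Top2a or Mki67 UMIs also had opposite signs for Cdkn1a. It was −0.59 in Myog-positive cells at E12.5, against 1.08 in mesenchyme and 1.85 in the chondrocyte class at E15.5, differences of −1.66 and −2.43 that mix ages and libraries. At E12.5 the ratio was −0.77 in mesenchyme and −0.96 in the chondrocyte class, of the same sign as in Myog-positive cells. In Myog-positive cells at E15.5 it was −1.24, with differences of −2.32 and −3.09 from the same groups.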

How the results depend on the processing

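The count of members past 2-fold between muscle states was within 1.5 times the main count under every alternative run. Other counts moved. Across age, 5 members in Pax7-positive cells became 2 after thinning, and 3 in the chondrocyte class became 0 at resolution 0.5 and 1 after thinning. Between cells with and without Top2a or Mki67 UMIs, 2 members became 1 in Myog-positive cells at E15.5 (doublets kept, thinning), in mesenchyme at E15.5 (mean over cells, thinning) and in the chondrocyte class at E15.5 (Matn1-led cluster, resolutions 0.5 and 2). Counts of 0 became 1 in Pax7-positive cells at E12.5 and E15.5 (at least 2 UMIs of Pax7 or Myog, at least 2 UMIs of Top2a and Mki67) and at E15.5 also with the mean over cells and with doublets kept. They became 1 in Myog-positive cells at E12.5 with the mean over cells, in mesenchyme at E12.5 with no minimum on level, and in the chondrocyte class at E12.5 with at least 2 Top2a and Mki67 UMIs, doublets kept or no minimum. Ccnd2 in Myog-positive cells at E15.5 reversed to 0.0365 after thinning (main −1.08), and Cdkn1a across age in the chondrocyte class to −0.24 at resolution 0.5 (main 1.32). Thinning moved 9 of 64 levels by over 1.5-fold. Of the same 64 thinned levels, 33 were inside the 95% interval of the level without thinning and 31 outside it. Of the single gene ratios 881 were within the interval of the main value, 194 moved and 2 reversed. The cause of these moves was not tested. No paired analysis was possible because each age had 1 library.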
